A study of Mus musculus with 6 samples.

Results

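The 10 apolipoprotein genes studied were Apoa1, Apoa2, Apoa4, Apoa5, Apob, Apoc1, Apoc3, Apoe, Apoh and Apom. They were followed through the transcriptomes of mouse liver tumors with or without hepatocyte-aimed deletion of the protein arginine methyltransferase gene Prmt3. They were found by symbol in the deposited gene table, and all 10 were among its 34745 genes. Apolipoproteins are the proteins of the lipoprotein particles that carry triglyceride and cholesterol through blood. The liver secretes most of them, and each has its own part in the cycle: Apob builds very low density lipoprotein, the A class and Apom sit mainly on high density lipoprotein (HDL), the C class and Apoa5 set how fast lipoprotein lipase removes triglyceride, and Apoe is the ligand that receptors recognize on remnants. Because hepatocytes make them in bulk, their transcripts are also widely read as signs of hepatocyte differentiation.

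RNA sequencing was done on 3 tumors from Prmt3f/f mice, which the labels call WT, and 3 tumors from Prmt3LKO mice, which the labels call Prmt3-KO. In Prmt3LKO mice, floxed Prmt3 is deleted by Cre under the albumin promoter, so that deletion is aimed at hepatocytes and other liver cells keep the gene, whereas Prmt3f/f mice carry the floxed alleles without deletion. All animals were male, and tumors were induced in all of them with N-nitrosodiethylamine (DEN; 25 mg/kg, given when 2 weeks old) followed by carbon tetrachloride (CCl4; 10%, 0.5 ml/kg, begun when 6 weeks old) and collected at 26 weeks. A group is therefore a genotype within DEN-CCl4 tumors, with no untreated liver for comparison. The labels number the tumors 7, 66 and 71 for Prmt3f/f and 92, 93 and 94 for Prmt3LKO, and values below follow that order. The labels do not state that each tumor came from its own mouse, so p-values measure the spread between these samples.

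The libraries held 18440244 to 27976598 counts. Prmt3 stood at 8.42 ± 1.78 CPM (counts scaled to a common library size; SD, n = 3) in Prmt3f/f tumors and at 2.88 ± 0.898 CPM in Prmt3LKO tumors, lower in every Prmt3LKO tumor. Its log2 fold change was -1.55 (SE 0.29), with an edgeR adjusted p of 0.592. Albumin stood at 108202 to 164722 CPM, and the summed level of 15 hepatocyte markers, 182631 to 250899 CPM in Prmt3f/f and 200485 to 224840 CPM in Prmt3LKO tumors, overlapped between the groups. Marker lists of other cells also differed in level between tumors. The summed level of 14 macrophage markers ran from 881 to 1556 CPM in Prmt3f/f and from 619 to 886 CPM in Prmt3LKO tumors, that of 10 kidney markers from 2.95 to 4.24 CPM and from 8.90 to 12.6 CPM, and that of 6 cholangiocyte markers reached 4103 CPM in tumor 7 against 207 to 1016 CPM in the other tumors, of which Spp1 alone made 4075 CPM in tumor 7.

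The 10 genes together took 4.83%, 4.63% and 4.98% of the counts in Prmt3f/f tumors and 5.09%, 4.56% and 5.26% in Prmt3LKO tumors, so the groups overlapped in their total apolipoprotein output. Every gene passed the filter on low counts, with 8226 counts at the least (Apom) and 435410 at the most (Apoa1). A gene was called when its edgeR quasi-likelihood p, adjusted by the Benjamini-Hochberg method over all 13892 tested genes, was below 0.05 with a fold of 2 or more. None of the 10 was called in either direction by edgeR, where the background was 0.00% of all tested genes in each direction, and none passed both limits under any of the 15 alternatives tried. At an unadjusted p below 0.05, 1 gene (Apoc3, higher) and no lower gene was found by edgeR, against 2.20% of all genes higher, 4.37% lower and 6.56% in either direction. DESeq2 gave Apoc3 an adjusted p below 0.05 at any fold, a limit passed upward by 0.0881% and downward by 0.305% of the genes it tested. In whole tumors, fewer cells of a type and less RNA per cell cannot be told apart for any of these genes.

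**Figure D1:**
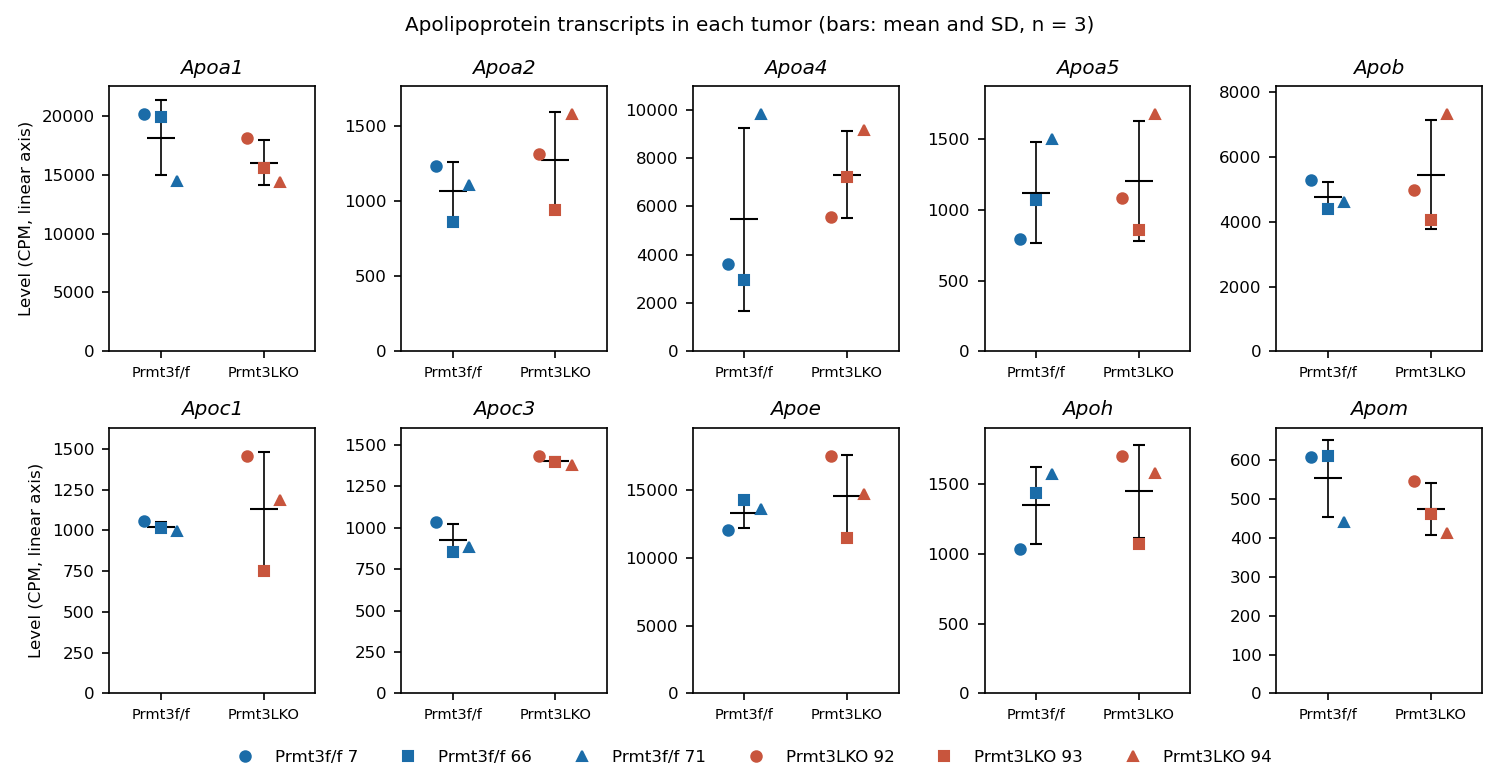
Level of each apolipoprotein transcript in CPM (vertical axis, linear and starting at 0) in the 3 Prmt3f/f and 3 Prmt3LKO tumors, with 1 symbol per tumor and bars for the group mean and SD. The 3 Prmt3LKO tumors lie above all Prmt3f/f tumors for Apoc3, at 1381 to 1431 CPM against 855 to 1036 CPM, and the groups overlap for the other 9 genes.

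Apoa1, Apoc3, Apoa4 and Apoa5 lie side by side on mouse chromosome 9 (GRCm38), within 43340 bases: Apoa1 (chr9:46228580-46230466, plus strand), Apoc3 (chr9:46232933-46235636, minus strand), Apoa4 (chr9:46240696-46243459, plus strand) and Apoa5 (chr9:46268633-46271919, plus strand). Apoa1 and Apoc3 are 2466 bases apart and Apoc3 and Apoa4 5059 bases apart, while 25173 bases separate Apoa4 from Apoa5. Because Apoa1 ran unlike Apoa4 and Apoa5 over the tumors, the bases before these 3 plus-strand genes of the cluster are shown. They come from the RefSeq promoter table (GRCm38.p6, plus strand, 5′ to 3′), which holds 250 bases before each start, here without bases that lie inside the gene as the deposited table places it. Capitals mark matches to the motifs that were searched.
Apoa1, chr9:46228380-46228579: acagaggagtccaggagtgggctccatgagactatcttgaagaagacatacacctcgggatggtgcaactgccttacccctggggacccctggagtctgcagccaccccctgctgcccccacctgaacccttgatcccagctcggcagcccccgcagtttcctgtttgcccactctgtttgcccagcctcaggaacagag
Apoa4, chr9:46240594-46240695: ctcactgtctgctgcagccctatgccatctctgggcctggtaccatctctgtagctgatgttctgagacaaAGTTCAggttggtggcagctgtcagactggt
Apoa5, chr9:46268383-46268632: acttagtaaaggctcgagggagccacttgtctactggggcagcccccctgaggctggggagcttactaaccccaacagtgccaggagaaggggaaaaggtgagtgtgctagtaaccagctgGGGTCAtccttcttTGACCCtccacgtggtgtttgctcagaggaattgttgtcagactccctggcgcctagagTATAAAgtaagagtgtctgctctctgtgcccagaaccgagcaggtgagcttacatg

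The motifs, searched on both strands of the full 250 bases, were the TATA box (TATAAA), the CCAAT box (CCAAT), a core of the HNF4 element (CAAAGTC), an HNF1 motif (GTTAAT) and the nuclear receptor hexamer AGGTCA with its variants a (AGTTCA), b (GGGTCA) and c (AGGTCC), the variants being added after the sequences had been read. RefSeq windows were found for 8 of the 10 genes, and not for Apoc1 and Apoc3. For Apoa2, Apoa5 and Apoe, which have several, the window nearest the gene start in the deposited table was counted, and that of Apoh lies 51943 bases from this start. TATAAA occurred in 3 of the 8 counted windows, those of Apoa2, Apoa5 and Apob, and in 12.4% of the 32851 promoters in the table. CCAAT occurred in 1 of the 8, that of Apoa2, and in 33.8% of all promoters. An Apoe window that was not counted also held TATAAA. The Apoa5 window held GGGTCA once on each strand, a motif found in 11.6% of promoters. The Apoa4 window held AGTTCA at positions -179 to -174 from the RefSeq start, shown in capitals above, and AGGTCC on the minus strand at -116 to -111, in the part not shown. In the Apoa1 window, the match was AGTTCA on the minus strand at -42 to -37, also in the part not shown. AGGTCA itself occurred in 1 of the 8 counted windows, that of Apoh, and in 14.0% of all promoters. At least 1 of the 4 hexamers occurred in 7 of the 8 and in 41.2% of all promoters. These last shares cannot be compared, because the variants were picked after the sequences of the members had been read. The remaining gene, Apoa2, had AGGTCA only in its other window, which was not counted. CAAAGTC (3.84% of all promoters) and GTTAAT (6.43%) occurred in none of the 8, but GTTAAT occurred in another Apoe window, on the minus strand at -172 to -167. A match is a description of the letters and not a binding site.

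Apoa1 encodes the main structural protein of HDL and was the most abundant member. It stood at 20100, 19895 and 14436 CPM in Prmt3f/f tumors and at 18117, 15585 and 14353 CPM in Prmt3LKO tumors. Tumors 7 and 66 were the highest and tumors 71 and 94 the lowest, so the groups overlapped. The group means were 18144 ± 3212 and 16019 ± 1919 CPM (SD, n = 3), a log2 fold change of -0.18 (SE 0.28) with an adjusted p of 0.968 by edgeR. The smallest p that an exact two-sided permutation test can give with 3 against 3 tumors is 0.1, and Apoa1 gave 0.3. Its log2 fold change was -0.32 without tumor 71 and -0.10 without tumor 94.

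Apom, an HDL protein that carries sphingosine 1-phosphate (chr17:35128997-35132050, minus strand), followed Apoa1 from tumor to tumor. Its levels were 610.1, 610.4 and 440.5 CPM in Prmt3f/f tumors and 547, 463 and 413 CPM in Prmt3LKO tumors. Again tumors 7 and 66 were at the top and tumors 71 and 94 at the bottom. The log2 fold change was -0.22 (SE 0.21), with an edgeR adjusted p of 0.934 and a range of -0.36 (without tumor 71) to -0.13 (without tumor 94). Apom is also made in kidney. Of the 10 kidney markers, 7 were higher in every Prmt3LKO tumor, at a summed level of at most 12.6 CPM. Among all tested genes, 5.56% were higher in every Prmt3LKO tumor. Only 3 of the 10 kidney markers passed the filter on low counts. Of the 7, Slc5a2 had at most 4 counts and Slc22a6 at most 5 counts in any tumor. The part of kidney transcripts in the Apom counts was not tested.

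The ratio of Apoa1 to Apom, taken on deposited FPKM (fragments scaled to gene length and library size), was 22.5, 22.3 and 22.4 in Prmt3f/f tumors and 22.6, 23.0 and 23.7 in Prmt3LKO tumors. Over the 6 tumors it thus stayed within a narrow band while Apoa1 itself varied 1.40-fold and Apom 1.48-fold. Within that band, the ratio was slightly higher in every Prmt3LKO tumor than in any Prmt3f/f tumor, with 22.62 (tumor 92) and 22.5 (tumor 7) the nearest values. How many other gene pairs have a ratio that separates the groups was not computed, so this is a description only. On log2 CPM, Pearson's r between the pair was 0.994 and Spearman's rho 0.943 (n = 6 tumors, each point a library in which both were counted), and r was 0.981 without the 2 tumors farthest from the median of Apoa1. Of deviations from the group means, r was 0.996. The genes are on different chromosomes. The Apom window held GGGTCA at positions -156 to -151 and -32 to -27 from the RefSeq start. Both matches lie inside Apom as the deposited table places it, and the Apoa1 match likewise lies inside Apoa1. Whether these matches bear on the likeness of the pair was not tested. With 45 pairs among 10 genes and 6 tumors, the r of 0.994 was the highest of all and is given as a description.

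Apoa2, the other abundant HDL protein (chr1:171225054-171226379), did not share that profile. Its levels were 1234, 862 and 1110 CPM in Prmt3f/f tumors and 1311, 942 and 1576 CPM in Prmt3LKO tumors, with tumor 66 lowest and tumor 94 highest. The groups overlapped, and the log2 fold change was 0.26 (SE 0.26, edgeR adjusted p = 0.943), or 0.078 without tumor 94 and 0.44 without tumor 93. Pearson's r with Apoa1 was -0.324 over the 6 tumors.

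Apoa4 encodes a lipoprotein of intestine and liver that rises with lipid flux, and it was the most variable member. It stood at 3630, 2939 and 9802 CPM in Prmt3f/f tumors and at 5548, 7226 and 9144 CPM in Prmt3LKO tumors. Prmt3f/f tumors held both the lowest (66) and the highest (71) level, 3.34-fold apart, so that the Prmt3LKO tumors lay inside the range of the controls. The log2 fold change was 0.42 (SE 0.48), with an edgeR adjusted p of 0.948. The SD of log2 CPM was 0.928 in Prmt3f/f and 0.361 in Prmt3LKO tumors. Tumor 71 set the value: without it, the log2 fold change was 1.16 (edgeR unadjusted p = 0.00924, adjusted p = 0.516), and without tumor 66 it was 0.12.

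Enterocytes also make Apoa4 and Apob. Of 8 enterocyte markers, Cdx1, Cdx2, Sis and Alpi were listed at 0 in all 6 tumors, which allows at most 0.107 to 0.163 CPM each (3 counts per library, counting error only), and Lct had at most 3 counts and Rbp2 at most 4 in a tumor. Vil1, which other epithelia also make, was at 0.877, 0.467 and 0.457 CPM in Prmt3f/f and at 0.743, 2.21 and 5.28 CPM in Prmt3LKO tumors, highest in tumors 93 and 94 (edgeR unadjusted p = 0.0149, adjusted p = 0.646). The part of enterocyte transcripts in the counts of Apoa4, Apob or any other member was not tested. The summed level of the list was 36.2 to 91.7 CPM in Prmt3f/f and 44.4 to 61.4 CPM in Prmt3LKO tumors, most of it Fabp2, which liver also makes. Apoa4 overlaps a gene on the opposite strand, Gm10680, by 632 exonic bases, and that gene had 168 counts in all tumors together. Apoa5 likewise overlaps the antisense gene Gm47544, and since the use of strand in counting is not given in the sources used here, reads of such pairs could not be told apart.

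Apoa4 ran opposite to Apoa1 and Apom. Pearson's r was -0.971 with Apoa1 (Spearman's rho -0.886) and -0.963 with Apom (rho -0.943), the lowest r of the 45 pairs. Of deviations from group means, r was -0.966 with Apoa1 and -0.953 with Apom. The ratio of Apoa1 to Apoa4 in FPKM was 6.78, 8.29 and 1.80 in Prmt3f/f tumors and 3.997, 2.64 and 1.92 in Prmt3LKO tumors, and it spanned both groups. Among 7977 other genes with a mean of at least 10 CPM, the profiles most like that of Apoa4 belonged to Arfrp1 (r = 0.994), Pptc7 (0.989), Tfip11 (0.970), Serhl (0.970) and Cul2 (0.961). Pptc7 stood at 16.2, 15.9 and 23.6 CPM in Prmt3f/f and at 18.5, 21.2 and 22.5 CPM in Prmt3LKO tumors, and tumors 71 and 94 were again the highest. All 5 varied much less than Apoa4, which spanned 3.34-fold. Over the 6 tumors, Tfip11 ran from 24.35 to 27.39 CPM, Cul2 from 26.92 to 32.52 CPM and Arfrp1 from 8.96 to 12.46 CPM. As the highest of 7977 values of r over 6 tumors, they are given as a description.

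**Figure D2:**
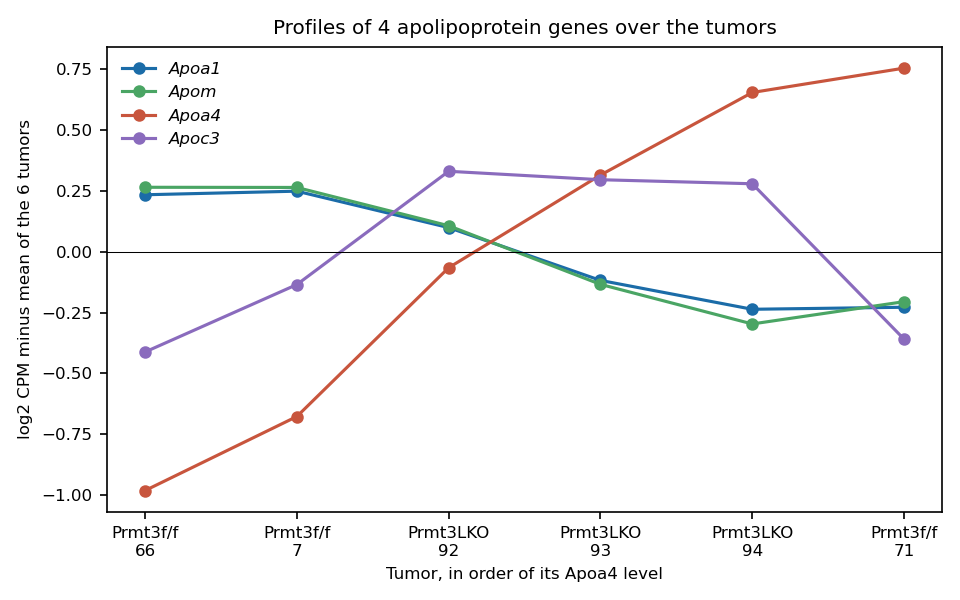
log2 CPM of Apoa1, Apom, Apoa4 and Apoc3 minus each gene's mean over the 6 tumors (vertical axis), with the tumors in order of their Apoa4 level (horizontal axis). Apoa1 and Apom run together (r = 0.994) and opposite to Apoa4 (r = -0.971 and -0.963), while Apoc3 divides the tumors by genotype.

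Apoc3 encodes the inhibitor of lipoprotein lipase and of remnant uptake, and was the only member whose groups did not overlap. Its levels were 1036, 855 and 887 CPM in Prmt3f/f tumors and 1431, 1397 and 1381 CPM in Prmt3LKO tumors. Every Prmt3LKO tumor was above every Prmt3f/f tumor, which was so upward for 5.56%, downward for 6.60% and in either direction for 12.2% of all tested genes. The means were 926 ± 96.7 and 1403 ± 25.6 CPM (SD, n = 3), a ratio of 1.51 and a log2 fold change of 0.60 (SE 0.18). The edgeR unadjusted p was 0.0118 and the adjusted p 0.620, and the exact two-sided permutation p was 0.1, the smallest possible.

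The side of the adjusted p limit on which Apoc3 fell depended on the tool, with 0.0401 by DESeq2 (log2 fold change 0.61, below 2-fold) and 0.0401 to 0.9998 over all alternatives. Its unadjusted edgeR p was 0.0663 when libraries were scaled to hepatocyte markers and 0.0538 without tumor 66. Direction held throughout, at 0.55 to 0.68 on the log2 scale with any 1 tumor left out. Against Apoa1, its neighbor at 2466 bases, Apoc3 amounted to 4.90%, 4.09% and 5.84% in FPKM in Prmt3f/f tumors and 7.51%, 8.53% and 9.15% in Prmt3LKO tumors, a ratio formed after the values had been seen. That ratio separated the groups, as Apoc3 alone already did, so it is not separate evidence. The share of other gene pairs whose ratio does so was not computed.

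Apoa5 encodes an activator of triglyceride removal by lipoprotein lipase. It stood at 792, 1071 and 1497 CPM in Prmt3f/f tumors and at 1084, 853 and 1672 CPM in Prmt3LKO tumors. Tumors 7 and 93, of different genotypes, were the lowest, and tumors 71 and 94 the highest. The log2 fold change was 0.10 (SE 0.33, edgeR adjusted p = 0.988), and it turned negative without tumor 7 (-0.10) or tumor 94 (-0.21).

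Apoc1, a small protein of very low density lipoprotein and HDL (chr7:19689484-19692658, minus strand), had close values in Prmt3f/f tumors, at 1056, 1013 and 993 CPM. In Prmt3LKO tumors it was at 1453, 753 and 1184 CPM, so that tumor 92 was above and tumor 93 below all controls. The SD was 32.1 CPM in Prmt3f/f and 353 CPM in Prmt3LKO tumors, and the log2 fold change was 0.15 (SE 0.26, edgeR adjusted p = 0.971). Without tumor 92 it was -0.075.

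Apoe, the remnant ligand, lies 3450 bases from Apoc1 (chr7:19696109-19699166, minus strand). It was at 12078, 14293 and 13610 CPM in Prmt3f/f tumors and at 17487, 11483 and 14730 CPM in Prmt3LKO tumors. Tumor 92 was again the highest and tumor 93 the lowest. The log2 fold change was 0.13 (SE 0.28, edgeR adjusted p = 0.983) and -0.023 without tumor 92. Apoe and Apoc1 had an r of 0.886, which was 0.339 without the 2 tumors farthest from the median.

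Macrophages, which are not targeted by albumin-Cre, also make Apoe and Apoc1. All 14 macrophage markers were below 0 on the log2 fold scale, 6 of them had an unadjusted edgeR p below 0.05, and Adgre1, Csf1r, Marco and Timd4 were lower in every Prmt3LKO tumor. Over all tested genes, 49.9% were below 0, 4.37% were lower at that p and 6.60% were lower in every Prmt3LKO tumor. Marco was at 22.5 CPM in Prmt3f/f and 4.63 CPM in Prmt3LKO tumors on average. The part of macrophage transcripts in the Apoe and Apoc1 counts was not tested.

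Apob (chr12:7977648-8016835), the structural protein of very low density lipoprotein, was at 5303, 4411 and 4609 CPM in Prmt3f/f tumors and at 4999, 4070 and 7319 CPM in Prmt3LKO tumors. Tumor 94 stood above the rest and tumor 93 below, and the groups overlapped. The log2 fold change was 0.19 (SE 0.28, edgeR adjusted p = 0.967), and it was -0.072 without tumor 94. Apob and Apoa2 had an r of 0.893 over the 6 tumors.

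Apoh, beta2-glycoprotein I (chr11:108343354-108414396), binds phospholipid and acts in coagulation and complement more than in lipid transport. It was at 1038, 1439 and 1573 CPM in Prmt3f/f tumors and at 1701, 1070 and 1579 CPM in Prmt3LKO tumors, with tumors 7 and 93 the lowest. The log2 fold change was 0.10 (SE 0.26, edgeR adjusted p = 0.984), and it was -0.063 without tumor 7 and -0.027 without tumor 92. Tumors 7 and 93 were also the lowest for Tat and Cps1, enzymes of mature hepatocytes picked from the 15 markers after their values had been seen. Tat, which degrades tyrosine, was at 355 CPM in tumor 7 and 374 CPM in tumor 93, against 1271 to 1938 CPM in the other tumors. Other markers of the list ran otherwise, with tumor 7 the highest for Fgb, Fgg and F9 and tumor 93 the highest for Hp.

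**Figure D3:**
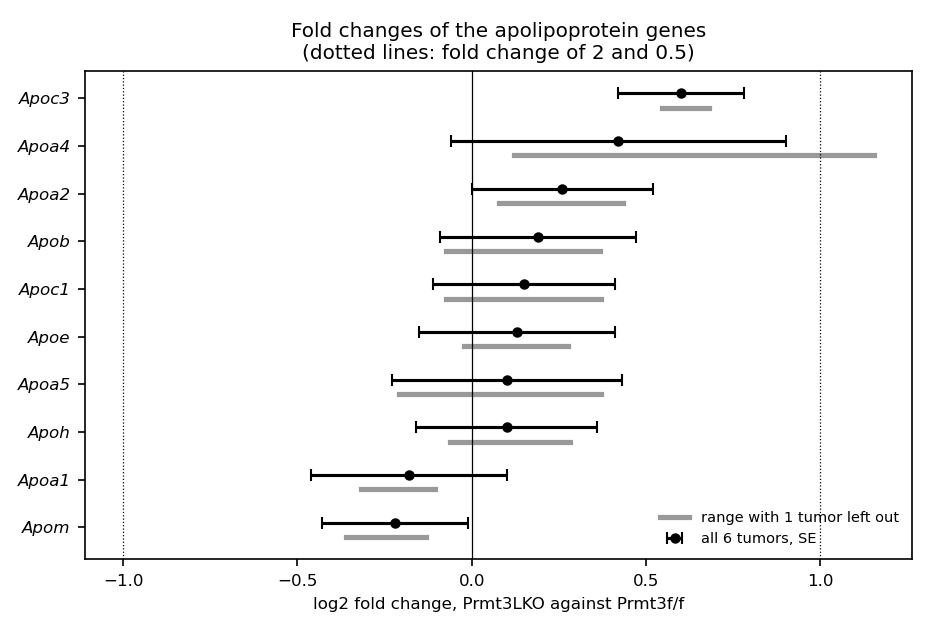
log2 fold change of each apolipoprotein gene in Prmt3LKO against Prmt3f/f tumors (points, bars for the SE, n = 3 per group), with gray lines for the range when 1 tumor is left out and dotted lines at a fold change of 2 and 0.5. Apoc3 is at 0.60 with a range of 0.55 to 0.68, and no gene reaches 2-fold with all 6 tumors.

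By direction, 8 of the 10 genes had a log2 fold change above 0 and 2, Apoa1 and Apom, below 0, against 50.1% and 49.9% of all tested genes. Their median was 0.14 beside 0.00 over all genes, and it was 0.33 without tumor 93. Tumor 92 held the highest level of 4 genes (Apoc1, Apoc3, Apoe and Apoh) and tumor 94 that of 3 (Apoa2, Apoa5 and Apob). Tumor 93 held the lowest level of 3 genes (Apob, Apoc1 and Apoe), as did tumor 66 (Apoa2, Apoa4 and Apoc3). Of the 45 pairs of genes, 31 had an r above 0, 4 above 0.8 and 2 below -0.8, with a median of 0.28.

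Levels of different genes were compared per length, on the deposited FPKM over all 6 tumors. Apoa1 led with 11504 ± 1748 FPKM (SD, n = 6) and ranked 3 among all genes of the table. It was followed by Apoa4 (3524 ± 1591), Apoe (2483 ± 295) and Apoc1 (1745 ± 324). Lower levels were found for Apoa2 (760.2 ± 162), Apoc3 (746 ± 169), Apoh (632 ± 111), Apom (507 ± 84.3), Apoa5 (450 ± 134) and Apob (289 ± 63.6 FPKM), the last at rank 132. Between neighbors in this order, the ranges over tumors were apart only for Apoa1 and Apoa4 and for Apoc1 and Apoa2. The places of Apoe and Apoa2 in it rest on lengths that are questioned below.

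The order depends on the length used. The deposited FPKM of Apoe implied a length of 5592 bases, whereas its exons in GENCODE M21 cover 2138 bases, and for Apoa2 the lengths were 1539 and 537 bases and for Apoc3 1559 and 1014 bases. The implied lengths of Apoe and Apoa2 exceed the whole genes as placed, which span 3058 and 1326 bases. They cannot be exon lengths of these genes, so the places of Apoe and Apoa2 in the FPKM order are not reliable. Per kilobase of GENCODE exons, Apoe moved to rank 2 among the members (6494 ± 771) and Apoa2 to rank 4 (2179 ± 464), while Apoc3 went to 1147 ± 260.0 at the same rank, Apoa1 stayed first and Apob last. A fold change between groups is unaffected, since the implied length was the same in every tumor.

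**Figure D4:**
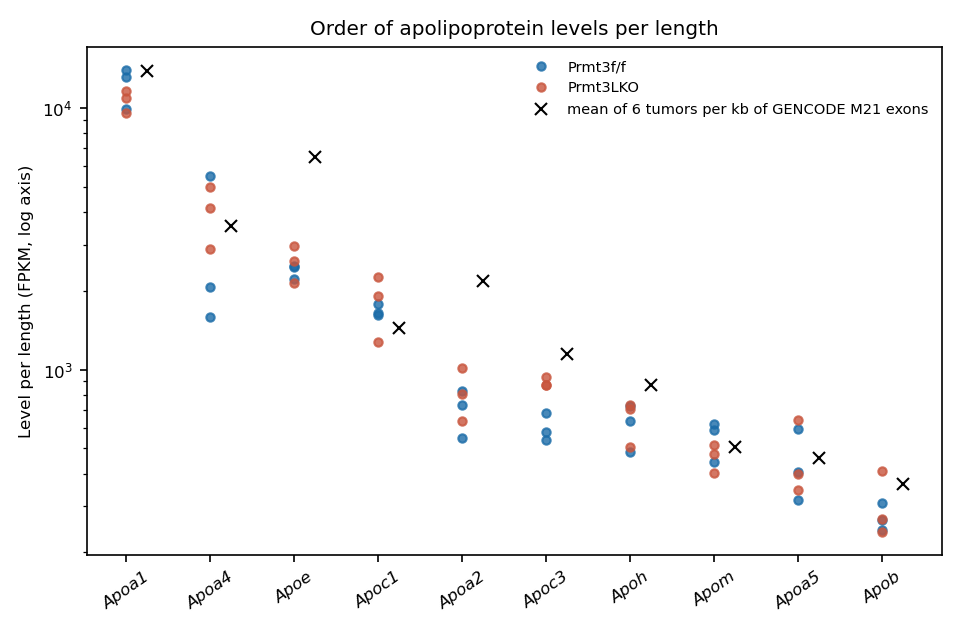
Level per length of the 10 genes in each tumor (points, deposited FPKM on a log axis) and the mean per kilobase of GENCODE M21 exons (crosses). Apoa1 is highest by either length at 11504 and 13803, and Apoe moves from 2483 to 6494.

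Of 12 other apolipoprotein genes that were tested, none had an unadjusted edgeR p below 0.05 or groups that did not overlap. Among all tested genes, 6.56% had such a p and 12.2% had groups that did not overlap. The median log2 fold change of the 12 genes was 0.09. Apoc2, the activator that lipoprotein lipase requires, lies in the chromosome 7 cluster with Apoe and Apoc1. It was at 1728, 916 and 894 CPM in Prmt3f/f tumors and at 1090, 1348 and 1267 CPM in Prmt3LKO tumors (log2 fold change 0.07, SE 0.30). Apoc4, whose function is less well known, was at 234 ± 15.9 and 266 ± 26.2 CPM (log2 fold change 0.19, SE 0.16), and it lies within Apoc2 over 3323 bases, so that reads may have been divided between them.

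Among 20 genes of lipoprotein assembly and secretion, 1 was lower and 1 higher at an unadjusted edgeR p below 0.05, with groups that did not overlap. At that p, 4.37% of all tested genes were lower and 2.20% higher. Groups did not overlap for 6.60% of all tested genes downward and 5.56% upward. Dgat1, an enzyme of triglyceride synthesis, was at 14.5, 13.8 and 15.3 CPM in Prmt3f/f tumors and at 18.1, 22.0 and 22.4 CPM in Prmt3LKO tumors (log2 fold change 0.52, SE 0.15, edgeR p = 0.00887, exact permutation p = 0.1, adjusted p = 0.606). Apobec1, the deaminase that edits Apob mRNA, was at 17.0, 19.7 and 18.7 CPM and at 11.3, 13.98 and 14.3 CPM (log2 fold change -0.49, SE 0.16, edgeR p = 0.0154, exact permutation p = 0.1, adjusted p = 0.648). Mttp, which loads lipid onto Apob, was at 364 ± 105 and 379 ± 16.3 CPM (log2 fold change 0.06, SE 0.23).

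In the list of 9 genes of HDL formation, Abcg1, a cholesterol exporter, was lower in every Prmt3LKO tumor, at 16.0, 19.7 and 18.9 CPM against 12.2, 14.1 and 14.1 CPM (log2 fold change -0.43, SE 0.15, edgeR p = 0.0235, exact permutation p = 0.1, adjusted p = 0.684). Among all tested genes, 6.60% were lower in every Prmt3LKO tumor and 4.37% were lower at an unadjusted edgeR p below 0.05. Abca1, which lipidates Apoa1, was at 253 ± 30.01 and 296 ± 74.1 CPM (0.23, SE 0.22 on the log2 fold scale). For Lcat, which esterifies HDL cholesterol, the levels were 212 ± 84.7 and 205 ± 60.4 CPM (-0.04, SE 0.35). None of 9 lipolysis genes and none of 15 receptor genes had an unadjusted edgeR p below 0.05. That limit was passed in either direction by 6.56% of all tested genes.

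Of 27 transcriptional regulators, 2 were lower at an unadjusted edgeR p below 0.05 and none was higher. Over all tested genes, the shares were 4.37% lower and 2.20% higher. Prox1, a factor of liver development and among those lower, had overlapping groups (log2 fold change -0.62, edgeR p = 0.0186, exact permutation p = 0.2). Hnf4a, the hepatocyte factor that many apolipoprotein genes depend on, was at 707 ± 41.3 and 689 ± 68.9 CPM (-0.04, SE 0.17 on the log2 fold scale). Over all 92 tested genes of the 6 lists, 4 were lower and 1 was higher at an unadjusted edgeR p below 0.05, beside the same 4.37% and 2.20%. The median log2 fold change of the 92 genes was 0.04. With 1 tumor left out, the medians crossed 0 for regulators (-0.20 to 0.066), HDL formation (-0.09 to 0.19), other apolipoproteins (-0.019 to 0.20), assembly (-0.041 to 0.12) and lipolysis (-0.037 to 0.11), and stayed above 0 for receptors (0.11 to 0.19).

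**Figure D5:**
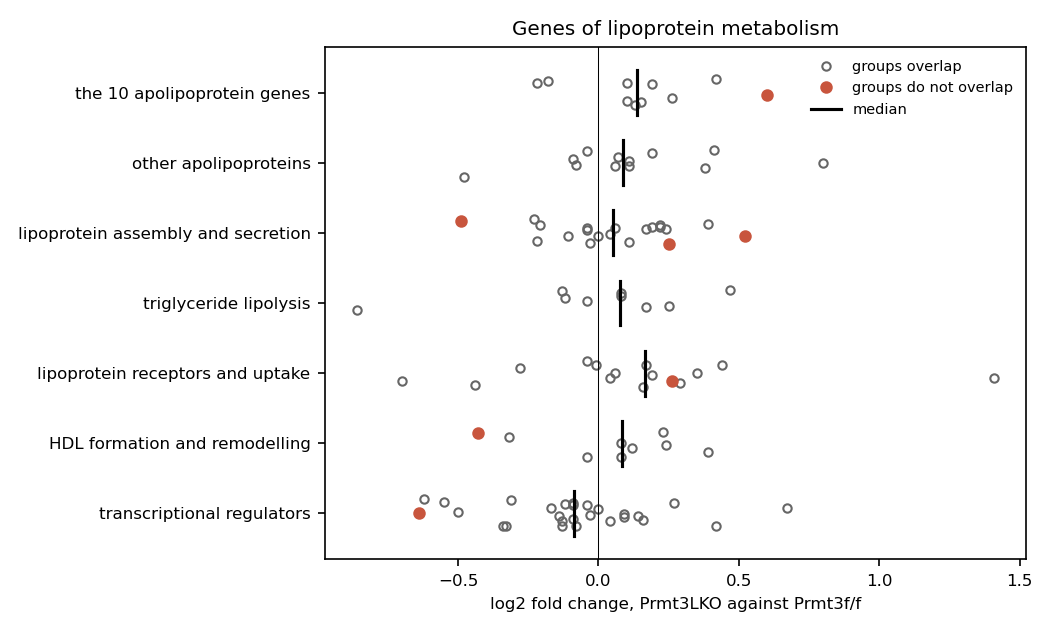
log2 fold change in Prmt3LKO against Prmt3f/f tumors of the 10 apolipoprotein genes and of the 6 lists of lipoprotein genes, 1 circle per gene, filled where the groups do not overlap, with a line at each median. The members have a median of 0.14 and the lists between -0.09 and 0.16 with all 6 tumors, and the medians of 5 lists cross 0 when 1 tumor is left out.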

How the data were processed

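Gene counts and FPKM were deposited by the authors in 1 table of 34745 genes and 6 tumors. The submitters' processing notes name bcl2fastq 2.19, HISAT2 2.0.4, StringTie 1.3.0 and GRCm38; how reads were assigned to genes, and whether strand was used, is not given in the sources used here. The counts, deposited whole and not normalized, were tested with edgeR 4.0.16 in R 4.3.3 (filterByExpr with a minimum count of 10, TMM, glmQLFit and glmQLFTest) on all 13892 genes that passed, with Benjamini-Hochberg adjustment. CPM values used TMM library sizes. The deposited FPKM served to compare levels between genes and as an alternative unit in limma 3.58.1. Single genes were also tested by an exact two-sided permutation of log2 CPM (prior count 2). DESeq2 1.42.0 was an alternative.

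On simulated counts with 4-fold changes, edgeR recovered 164 of 195 changed genes with 12 false calls, and DESeq2 174 of 200 with 41 false calls. The largest log2 fold change of a member with all 6 tumors was 0.60 (Apoc3), and recovery at that size was not simulated. The simulation therefore cannot tell how often changes like those of the members would be missed. The members, gene lists and motifs were chosen with earlier results of these data known. Genes of the 6 lists were named where the unadjusted edgeR p was below 0.05 and the groups did not overlap (up to 10), together with genes named whatever their values (Apoc2, Apoc4, Mttp, Lcat, Abca1, Hnf4a and Alb among them). Some genes that these rules name are not reported here. For the member with the largest SD, the 5 genes with the highest Pearson's r on log2 CPM were named. Promoter sequences are from RefSeq and exon lengths from GENCODE M21.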

Additional observations from a re-analysis of the deposited data

How the results depend on the processing

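Each member was refitted under 15 alternatives, 6 of which left out 1 tumor: of 150 values, 142 kept their direction and their side of the threshold. The 7 that changed sign all came from leaving out 1 tumor: Apoa5 without tumor 7 (-0.10) and without tumor 94 (-0.21), Apob without tumor 94 (-0.072), Apoc1 without tumor 92 (-0.075), Apoe without tumor 92 (-0.023), and Apoh without tumor 7 (-0.063) and without tumor 92 (-0.027). With any 1 tumor left out, the log2 fold change was -0.21 to 0.37 for Apoa5, -0.072 to 0.37 for Apob, -0.075 to 0.37 for Apoc1, -0.023 to 0.28 for Apoe and -0.063 to 0.28 for Apoh. The remaining value was Apoc3 by DESeq2, at 0.61 with an adjusted p of 0.0401, so that the number of members higher at an adjusted p below 0.05 at any fold went from 0 to 1. The number higher at an unadjusted p below 0.05, 1 by edgeR, was 0 with hepatocyte-marker scaling and 0 to 2 with 1 tumor left out (0 without tumor 66, and 2, Apoc3 and Apoa4, without tumor 71). The members' median log2 fold change was 0.058 to 0.33 with 1 tumor left out. The cause was not tested.

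Scalings moved the median of all genes by at most 0.04 (log2). Every member had 8226 counts or more in each tumor, and no alternative with other depths was run. No paired analysis was possible because the groups share no replicate numbers.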

Other observations

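Outside the genes named by rule, and chosen after their values were seen, Sar1a and Pdzk1 were higher in every Prmt3LKO tumor without an unadjusted edgeR p below 0.05. Of the 92 tested genes of the 6 lists, 3 were higher and 3 lower in every Prmt3LKO tumor. The shares of all tested genes were 5.56% and 6.60%. Sar1a, a GTPase of the coat that moves lipoprotein cargo out of the endoplasmic reticulum, was at 73.8, 83.0 and 78.2 CPM in Prmt3f/f tumors and at 90.5, 99.8 and 88.7 CPM in Prmt3LKO tumors (log2 fold change 0.25, SE 0.13, edgeR p = 0.102, exact permutation p = 0.1, adjusted p = 0.812). Pdzk1, a scaffold of the HDL receptor in hepatocytes, was at 57.5, 63.1 and 60.6 CPM and at 79.96, 64.2 and 72.1 CPM (log2 fold change 0.26, SE 0.14, edgeR p = 0.106, exact permutation p = 0.1, adjusted p = 0.816). Apoe and Apoh, on different chromosomes, had the third highest correlation of the 45 pairs, with a Pearson's r of 0.891 over 6 tumors.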
